A study of Rattus norvegicus with 112 samples.

Results

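The genes described here move and metabolise the amino acid transmitters glutamate and GABA. They were chosen by name: the glutamate transporters Slc1a1, Slc1a2 and Slc1a3, the GABA transporter Slc6a11, the GABA-synthesising enzymes Gad1 and Gad2, and the GABA-degrading enzyme Abat. Of these 7 genes, 6 had at least 1 probe set on the array, and Gad2 had none. They were represented by 13 of the 1263 probe sets kept: 3 for Slc1a1, 3 for Slc1a2, 4 for Slc1a3 and 1 each for Slc6a11, Gad1 and Abat.

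Glutamate released at cortical synapses is cleared by sodium-driven transporters. Slc1a2 (GLT-1) and Slc1a3 (GLAST) are mainly astrocytic, whereas Slc1a1 (EAAC1) is mainly neuronal and also carries cysteine into the cell. GABA is made from glutamate by the glutamate decarboxylases Gad1 and Gad2 in inhibitory neurons, is taken up by transporters such as Slc6a11 (GAT-3), and is broken down by the transaminase Abat.

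Primary rat cortical neurons were profiled on 112 one-colour arrays in 10 hybridisation runs. NMDA (N-methyl-D-aspartate, which opens one class of ionotropic glutamate receptor) was used at 1 mM, nicotine at 10 µM, and compound 4R, which the labels call a non-competitive nicotinic antagonist, at 2 µM. In the continuous run, NMDA was present for 10, 30, 60, 180 or 360 min up to harvest (3 arrays per group, with 3 controls). In the pulse run, NMDA was given for 10, 30 or 60 min and the cells were harvested 24 h after it was washed out (4 arrays per group, with 4 controls). In the crossed run, cells received 18 h of nicotine, 60 min of NMDA, nicotine followed by NMDA, or neither (3 arrays per group). In the washed-out experiment, cells received 18 h of nicotine, 30 min of NMDA, both, or neither, and were harvested 24 h after washing (5 samples per group). These 20 samples were hybridised in a first run and again in a repeat run, which the labels attribute to a failed oven without saying which run's values the failure affected. With all arrays, and with replicate number left out of the fit, every passing call of these genes came from the first run. Alternative fits that passed in other runs are named as such. The other runs compared 15 min of nicotine with harvest 45 min later, 18 h of compound 4R, and 18 h of compound 4R followed by 24 h of washing with their own controls (3 arrays per group). A small further pulse run (1 array per group) and 4 repeat arrays of the pulse run were only described. The labels do not give the age of the cultures, and only the pulse, crossed and 4R runs carry dates that tie arrays to a culture. In the other runs the p-values measure the spread between samples, which may be technical. Replicates 3 and 4 of the pulse run share a date, as do replicates 2 and 3 of the washed-out 4R run. They were treated as separate cultures, which the labels do not state.

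Arrays within a run had been scaled to a common trimmed mean. Of the 104 arrays in the 8 runs tested, 12 stood apart from the rest of their run, by a median correlation with its other arrays more than 3 median absolute deviations below the typical value. The 2 farthest were controls 3 and 4 of the repeat run of the washed-out experiment, with median correlations of -0.02 and 0.506. In the pulse run, replicate 3 of the 10 min group and replicate 4 of the 60 min group stood apart, at 0.627 and 0.736, and the latter had a GAPDH 3′/5′ signal ratio of 12.3 against a run median of 1.42. Neuronal markers were read by 21 probe sets for 10 of 13 listed genes. Their summed signal ranged from 145460 to 160414 in the controls of the first washed-out run, and none was at 0. Astrocyte markers (4 of 9 genes, none at 0) summed to between 34475 and 42080 in the same arrays. In such bulk samples, fewer cells of a type and less RNA per cell cannot be told apart.

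Only the neuronal glutamate transporter Slc1a1 passed the test in any of the 26 contrasts, and it did so with 1 of its 3 probe sets in the first washed-out run. Its signal fell 24 h after a 30 min exposure to NMDA, with or without nicotine. The GABA-synthesising enzyme Gad1 had the largest log2 difference of the 11 tested probe sets after NMDA in that run, but its signal differed so much between replicate numbers that it passed only when the number was included in the fit. No probe set of Slc1a2, Slc1a3, Slc6a11 or Abat passed with all arrays. Between 10 and 11 of the 13 probe sets were tested per run, since those with a run mean below the 30th percentile were left out. Both rc_AI044517 probe sets of Slc1a2 were below it in all 8 runs.

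**Figure D1:**
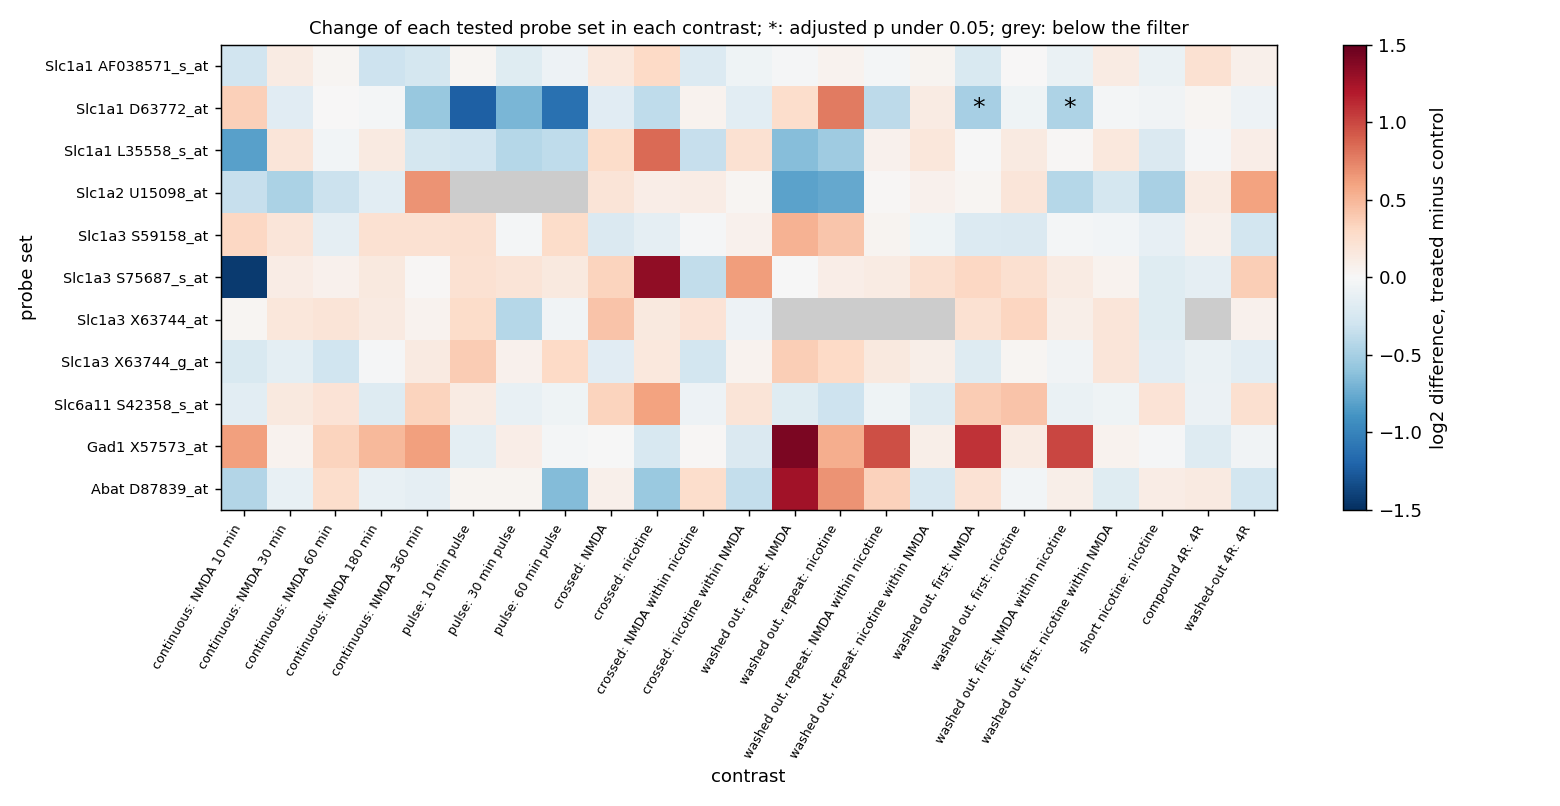
Fitted log2 difference of each tested probe set (rows) in each contrast (columns, without interactions), on a colour scale that ends at ±1.5. The 2 asterisks mark Slc1a1 D63772_at in the first washed-out run, and grey cells were below the filter in that run.

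Slc1a1 was read by D63772_at, AF038571_s_at and L35558_s_at. In the first washed-out run, D63772_at gave signals of 6632, 7746, 6811, 7161 and 6335 in the controls. After NMDA it gave 4240, 5324, 4779, 4692 and 5561. Every NMDA array lay below every control array. The means were 6937 ± 542 (SD, n = 5) and 4919 ± 526 (SD, n = 5), a log2 difference of -0.49 (SE 0.09; limma, adjusted p = 0.00276). In this contrast 123 of 884 probe sets passed, or 13.9%, against 1 of the 11 probe sets described here. The median of all probe sets tested was itself 0.16 higher after NMDA on the log2 scale, and with each array centred on its median the Slc1a1 difference was -0.76.

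The same probe set gave 5816, 6901, 6495, 6832 and 7183 after nicotine alone. After nicotine followed by NMDA it gave 4457, 4599, 4654, 5160 and 5071. These groups did not overlap either, and the log2 difference was -0.47 (SE 0.09; limma, adjusted p = 0.00915) where 2.04% of probe sets passed. Fitted over these 2 groups alone it was just short of the threshold (adjusted p = 0.0524). Nicotine itself left D63772_at within the control range except for 1 array below it and none above, with a log2 difference of -0.06 (95% interval -0.26 to 0.13). The interaction between the treatments did not pass for any probe set described here.

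The repeat run of the same 20 samples gave D63772_at signals of 5458, 7682, 401, 5258 and 7103 in the controls. After NMDA the values were 4981, 4726, 4442, 3643 and 4662. Control 3, at 401, was one of the arrays that stood apart. With all arrays the log2 difference was 0.27, and without the 2 arrays that stood apart it was -0.58 (limma, adjusted p = 0.0649). Averaging the 2 runs per sample without control samples 3 and 4, an alternative added after the values were seen, gave -0.53 (limma, adjusted p = 0.00949) for NMDA and -0.43 (adjusted p = 0.0194) for NMDA within nicotine. With all arrays, no probe set described here passed in the repeat run for NMDA (0.226% of all probe sets passed) or NMDA within nicotine (0%). The runs share their samples, so the repeat is a second measurement and not a second experiment.

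In the pulse run, also harvested 24 h after washing, D63772_at gave 4167, 6833, 6529 and 6997 in the controls. The 10 min pulse gave 2457, 5006, 730 and 4406, the 30 min pulse 2083, 4007, 4386 and 5156, and the 60 min pulse 2406, 4803, 4512 and 1047. The array at 2083, from culture 1, was taken as 30 min from its title, but 1 of its label fields gives 60 min. Each of the 12 pulsed arrays was lower than the control of the same culture, with median ratios of 0.61, 0.629 and 0.634. The ranges of each pulse group overlapped the controls, because the control of culture 1 was low. The log2 differences were -1.23 (SE 0.55), -0.69 (SE 0.55) and -1.12 (SE 0.55), none of which passed (limma, adjusted p = 0.498, 0.999 and 0.843), while 2.26%, 1.36% and 1.58% of all probe sets did. The values of 730 and 1047 came from the 2 arrays that stood apart, and without them the differences were -0.66, -0.69 and -0.68. With the culture as a block and those arrays left out, the 30 min pulse passed (limma, adjusted p = 0.02) and the others did not (0.0667 and 0.101). With the array that carries both times also left out, an alternative added after the values were seen, the 30 min pulse did not pass either (-0.63; limma, adjusted p = 0.104).

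Of the arrays at 730 and 1047, only the second was measured anew by a repeat array. The 60 min sample of culture 4, which gave 1047, gave 6341 on its repeat array, close to its control at 6997. The repeat arrays of the 10 min sample of culture 4 and the 30 min sample of culture 3 gave 3475 and 4976. The repeat listed for the 10 min sample of culture 3 held the same values as the original to within 0.05 and was not a new measurement. In the further pulse run, 1 array each gave 6911 for the control and 4952, 5821 and 5128 after 10, 30 and 60 min, with no replicate check.

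With NMDA present up to harvest, D63772_at was low at the last time only. The controls gave 6124, 5738 and 4791, and the 360 min arrays gave 3724, 3623 and 3728, all below the lowest control. The log2 difference of -0.57 (SE 0.20) did not pass (limma, adjusted p = 0.387), in a contrast where 0% of probe sets passed and 73 of 884 had an unadjusted p under 0.05. At 10, 30, 60 and 180 min the differences were 0.35, -0.17, 0.01 and -0.03. In the crossed run, harvested after 60 min of NMDA, it was -0.17 (95% interval -0.77 to 0.43).

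**Figure D2:**
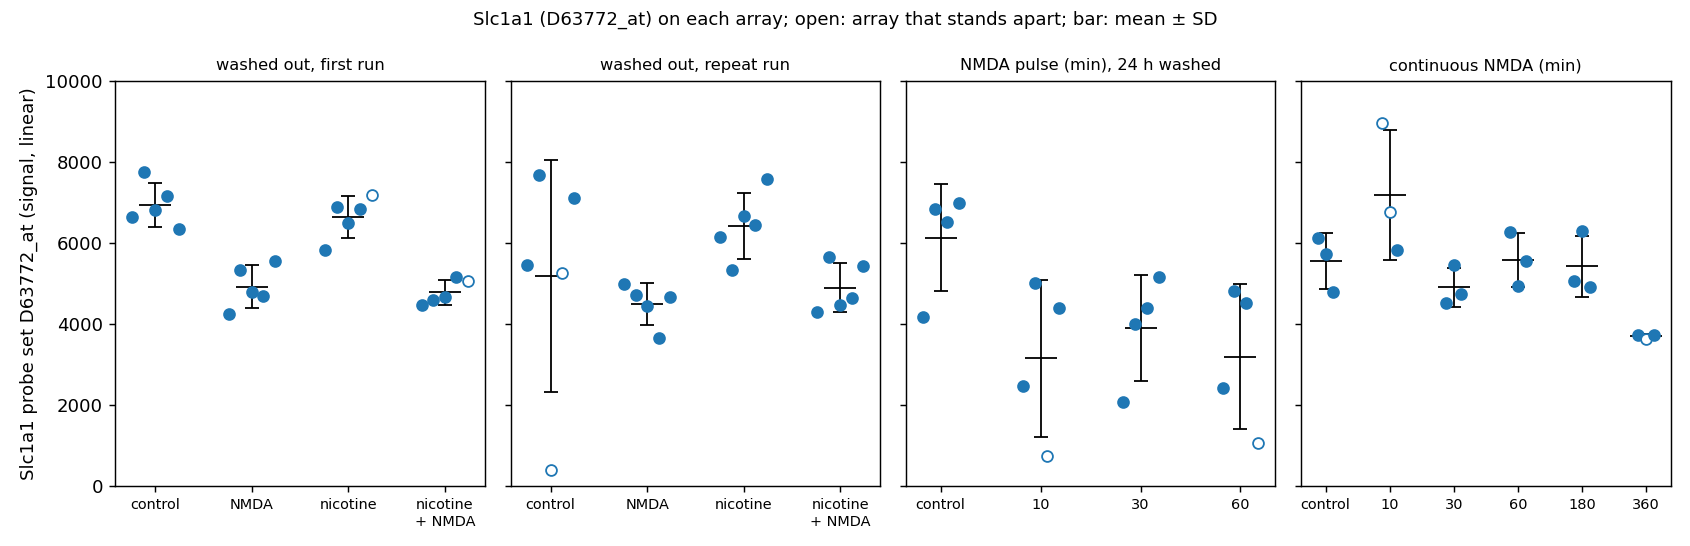
Signal of Slc1a1 D63772_at (linear axis) on each array of 4 runs, by group; bars are the mean ± SD and open points are arrays that stand apart. In the first washed-out run the NMDA arrays, from 4240 to 5561, lie below the controls, from 6335 to 7746.

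In the first washed-out run, the other Slc1a1 probe sets did not pass alongside D63772_at at the deposited scaling. AF038571_s_at averaged 3587 ± 469 in the controls and 3067 ± 405 after NMDA (SD, n = 5) in the first washed-out run, a log2 difference of -0.22 (limma, adjusted p = 0.233). It passed there only with each array centred on its median (-0.49, limma, adjusted p = 0.0108). L35558_s_at averaged 1494 ± 171 and 1490 ± 200 (SD, n = 5), a log2 difference of -0.01. In the pulse run it averaged 1428 in the controls and 1192, 1062 and 1068 after the 10, 30 and 60 min pulses. AF038571_s_at averaged 3222, then 3707, 2850 and 3054, with an array that stood apart in the 10 min and 60 min means. After 360 min of continuous NMDA, L35558_s_at gave 1924, 1538 and 1583 against controls of 2369, 1881 and 1869. AF038571_s_at gave 3530, 4604 and 4454 against 5779, 3958 and 5529. None of these differences passed with all arrays. Over the 74 arrays of 7 runs that did not stand apart, D63772_at correlated with AF038571_s_at at r = 0.084 and with L35558_s_at at r = -0.161. Over all 84 arrays these were -0.485 and -0.465. Those arrays share runs and cultures, and what each probe set hybridises to was not tested. The probe set of another gene most like D63772_at was Mapk8ip2, at r = 0.926 over 84 arrays and 0.752 over those 74.

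Slc1a2 and Slc1a3, the astrocytic transporters, showed no change that passed. Slc1a2 was measurable only through U15098_at, which was below the filter in the pulse run, so Slc1a2 was not tested there. In the first washed-out run, where the filter lay at 255, its controls averaged 337 ± 91.3 and NMDA arrays 341 ± 71.9 (SD, n = 5). Its log2 difference there was 0.03 (95% interval -0.40 to 0.46). Among the Slc1a3 probe sets, S59158_at averaged 6979 ± 1563 in the controls and 6084 ± 1755 after NMDA (SD, n = 5), a log2 difference of -0.21 (95% interval -0.68 to 0.26). S75687_s_at had the widest excursion, in the continuous run at 10 min: 676, 752 and 2381 against controls of 4183, 2127 and 3205. The 2 low arrays were those that stood apart, and the log2 difference of -1.43 did not pass (limma, adjusted p = 0.39). The same probe set read 74.9 on crossed control 2, an array that also stood apart, against 1203 and 2667 on the other controls. The 4 Slc1a3 probe sets correlated with each other at r between -0.29 and 0.44 over the 74 arrays. Astrocyte markers showed no passing probe set after NMDA in the first washed-out run, with 4 of 7 above 0.

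Slc6a11, a GABA transporter, gave 1497, 1024, 1448, 934 and 944 in the controls of the first washed-out run. After nicotine it gave 1621, 1861, 2213, 1215 and 1123, and after NMDA 1849, 1475, 1295, 1523 and 1472. The nicotine and control ranges overlapped, and the log2 differences of 0.43 for nicotine and 0.39 for NMDA did not pass (limma, adjusted p = 0.223 and 0.163). In the nicotine contrast 0.339% of probe sets passed. In the repeat run the corresponding differences were -0.31 and -0.18, where control 3 read 4433.

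Gad1 makes GABA for inhibitory neurons. In the first washed-out run X57573_at gave 3140, 1898, 2190, 2059 and 588 in controls 1 to 5. After NMDA, samples 1 to 5 gave 8227, 5376, 5562, 3754 and 771. The groups overlapped because sample 5 was low in both, but NMDA exceeded the same-numbered control in 5 of 5 cases, with ratios from 1.31 to 2.83 and a median of 2.54. The means were 1975 ± 914 and 4738 ± 2737 (SD, n = 5), a log2 difference of 1.08 (SE 0.63; limma, adjusted p = 0.271). Same-numbered samples of these groups deviated together, and with the number as a block the SE was 0.14 and the difference passed (limma, adjusted p = 0.000209), when 210 probe sets passed in all.

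After nicotine Gad1 gave 3442, 1963, 2951, 2399 and 502, at a log2 difference of 0.12 from the controls. After nicotine followed by NMDA it gave 7719, 5276, 5137, 3935 and 1044, above the nicotine sample of the same number in 5 of 5 cases. The log2 difference of 1.00 (SE 0.63) did not pass (limma, adjusted p = 0.525). In the repeat run of the samples, controls gave 1332, 2014, 1634, 2832 and 488 and NMDA samples 9361, 5061, 5505, 3734 and 966, a difference of 1.41 (SE 0.56; limma, adjusted p = 0.238). Both differences passed with the number as a block, with values given in the last section. Same-numbered deviations did not all go together there, with correlations from -0.0808 to 0.636 and from 0.00852 to 0.285.

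In the pulse run the direction differed between cultures. The controls gave 11576, 5668, 1706 and 3907, and after the 30 min pulse the same cultures gave 6828, 5540, 2059 and 7527. Of the 4 cultures, 2 were higher and 2 lower at each pulse length, and the log2 differences were -0.15, 0.10 and -0.03, with 95% intervals of -1.76 to 1.46, -1.51 to 1.72 and -1.64 to 1.59. The first of these was 0.84 without the array that stood apart. The value of 6828 came from the array whose labels give both 30 and 60 min. The repeat arrays gave 6371 for the 10 min sample of culture 4, 2538 for the 30 min sample of culture 3 and 7888 for the 60 min sample of culture 4, whose first array had given 4021. All 3 were above the control of their culture, as the first arrays had been. In the further pulse run, 1 array each gave 2862 for the control and 4748, 4447 and 3133 after 10, 30 and 60 min, all higher than the control, with no replicate check. In the continuous run, 360 min of NMDA gave 5847, 1417 and 3507 against controls of 2921, 846 and 3098, higher in 3 of 3 same-numbered pairs, at 0.62 (limma, adjusted p = 0.899).

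**Figure D3:**
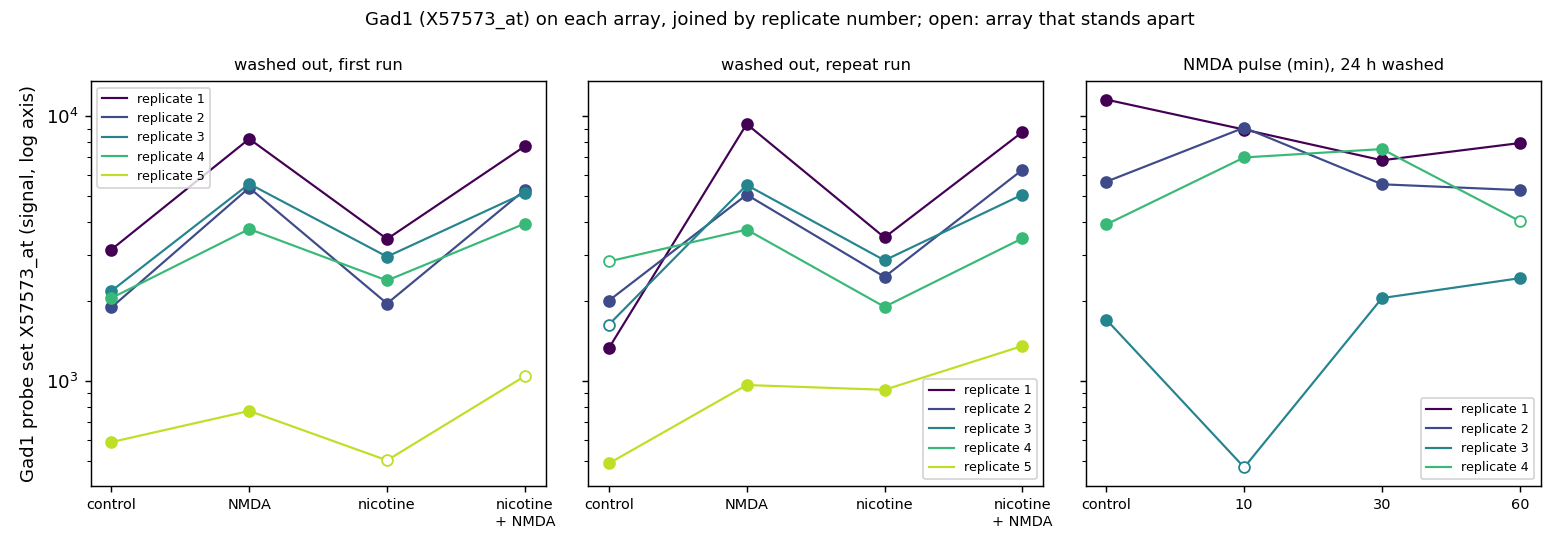
Signal of Gad1 X57573_at (log axis) on each array of 3 runs, joined by replicate number; open points are arrays that stand apart. In the first washed-out run all 5 lines are higher after NMDA than in the control, and replicate 5 lies below the others throughout.

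Replicate number, rather than treatment, accounted for most of the spread of Gad1 in the first washed-out and continuous runs. It took 75.1% of the sum of squares in the first washed-out run and 86.6% in the continuous run, against 22.4% and 7.77% for the treatment group. For Slc1a1 D63772_at the order in these runs was the other way round, with 8.69% and 6.08% for number and 83.5% and 75.9% for group. That order did not hold for D63772_at in every run. Number and group took 14.2% and 29.8% in the pulse run, but 23.7% and 11.6% in the repeat washed-out run. In the crossed run they took 66.7% and 19.8%. Over 84 arrays of 7 runs, each probe set as log2 minus its run mean, the probe sets most like Gad1 were both of somatostatin (Sst), at r = 0.904 and 0.81, and 1 of the vesicular GABA transporter Slc32a1, at r = 0.793. All 3 mark inhibitory neurons. The arrays share cultures and runs, and over the 74 that did not stand apart these were 0.905, 0.887 and 0.806. A probe set of the astrocyte marker S100b also correlated with Gad1, at r = 0.644. After the 10 min pulse, Gad1 was above its control in 2 of 4 cultures. Sst K02248cds_s_at gave 9921, 5845, 3346 and 2424 in the controls and 34216, 32477, 9896 and 9722 after this pulse. Slc32a1 AF030253_at gave 8198, 7668, 3927 and 8089, then 6228, 5768, 820 and 4394. Sst M25890_at rose in all but culture 3 (6406, then 671 on an array that stood apart).

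Of the inhibitory neuron markers, 2 of 8 probe sets passed after NMDA in the first washed-out run, where 13.9% of all probe sets did. The summed signal of the 8 probe sets (5 of 10 listed genes, none at 0) ranged from 15393 to 35365 with a median of 26942 in the controls, and from 16252 to 84102 with a median of 59877 after NMDA. In that contrast 7 of the 8 were above 0 and the lowest was -0.20. The median log2 difference of the 8 was 0.55, beside 0.16 over all probe sets. Sst M25890_at alone ranged from 1983 to 11450 in the controls and from 2317 to 41114 after NMDA, so it weighed heavily in the sum. Npy ranged from 5646 to 7235 in the controls and from 5024 to 9008 after NMDA. Both prepronociceptin (Pnoc) probe sets passed (1.07 and 0.79; limma, adjusted p = 0.00789 and 0.0025). The Sst probe sets stood at 1.62 and 1.60 without passing, and those of Slc32a1 at 0.30 and 0.22. Markers of other cells passed in the same contrast. Both probe sets of Mag, a myelin glycoprotein of oligodendrocytes, rose (0.37 and 0.71; limma, adjusted p = 0.0217 and 0.0025), making 2 of the 4 oligodendrocyte probe sets tested. The summed signal of the 7 oligodendrocyte probe sets (4 of 7 listed genes, none at 0) ranged from 3879 to 5406 in the controls and from 5016 to 8414 after NMDA. Of the 19 neuronal probe sets tested, the 2 that passed were both of the neurofilament gene Nefl (0.52 and 0.78; limma, adjusted p = 0.035 and 0.00451). The part of these markers in the Gad1 and Slc1a1 values was not tested.

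**Figure D4:**
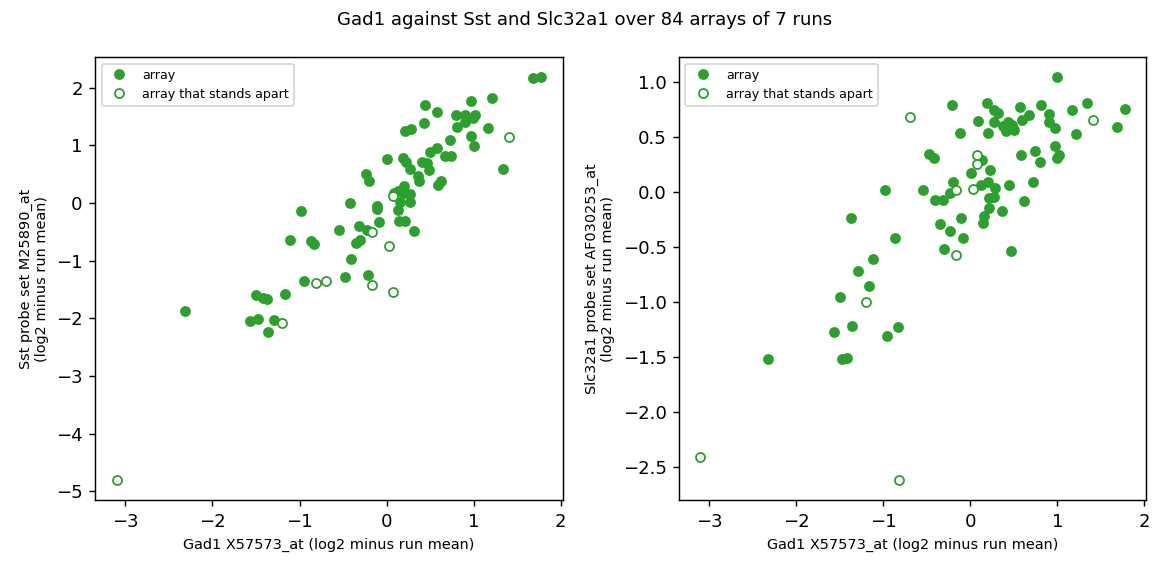
Gad1 against Sst (left) and Slc32a1 (right) over 84 arrays of 7 runs, each as log2 signal minus its run mean; open points are arrays that stand apart. The points rise together, at r = 0.904 and 0.793.

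The start of Gad1 is shown because Gad1 and Sst correlated over arrays and the cyclic AMP response element TGACGTCA is a known feature of the Sst gene. The sequence is the first 250 bases listed for the start region of Gad1 (GRCr8, chr3:75777202-75777451, plus strand). Its distance from the RefSeq start was not checked. Capitals in it would mark that palindrome.

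Gad1: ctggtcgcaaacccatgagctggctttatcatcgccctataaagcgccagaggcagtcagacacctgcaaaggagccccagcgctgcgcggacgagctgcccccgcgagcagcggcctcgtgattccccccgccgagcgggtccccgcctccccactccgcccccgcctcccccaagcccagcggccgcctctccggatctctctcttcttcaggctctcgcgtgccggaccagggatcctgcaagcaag

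The search missed its known case: the motif was not found in the same window of Sst. Its absence from the Gad1 and Slc32a1 windows therefore carries no information. Of 33469 such windows, 1.59% held it.

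Abat, which degrades GABA, gave 471, 652, 259, 246 and 277 in the controls of the repeat washed-out run and 933, 1145, 893, 816 and 922 after NMDA, without overlap. The log2 difference of 1.26 (SE 0.32) did not pass (limma, adjusted p = 0.0922), and without control 2 it did (1.45, adjusted p = 0.0244). The values of 259 and 246 came from controls 3 and 4, the 2 arrays that stood apart. Without them the difference was 0.99 (limma, adjusted p = 0.0798), and in the mean of both runs without these control samples it was 0.65 (adjusted p = 0.113). The first run of the same samples gave 662, 917, 868, 860 and 612 in the controls and 1037, 925, 1004, 1012 and 642 after NMDA. These overlapped, with a difference of 0.22 (95% interval -0.29 to 0.73). The NMDA means were 942 and 924 in the repeat and first runs, and the control means 381 and 784.

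Other genes of amino acid transmitter handling were few on the array, 6 of a list of 40. Among them only Glud1, which converts glutamate to 2-oxoglutarate, had a passing probe set in the first washed-out run after NMDA, 1 of its 3, at -0.38 (limma, adjusted p = 0.0163). That is 1 of the 12 probe sets of the list tested, beside 13.9% of all probe sets. The glutamate transporter Slc1a6 stood at -0.90 and -0.66 in the same contrast and at -2.15 after the 10 min pulse, without passing.

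In the remaining contrasts no probe set described here passed. Nicotine for 15 min gave median and extreme log2 differences of -0.13, -0.48 and 0.21, compound 4R for 18 h gave 0.00, -0.20 and 0.23, and washed-out 4R gave 0.06, -0.28 and 0.61. In each of these, 0% of all probe sets passed by limma, and 29, 20 and 14 had an unadjusted p under 0.05. The median half-widths of the 95% intervals were 0.38, 0.46 and 0.66, and the widest 0.79, 0.98 and 1.67. These intervals are not adjusted for the number of probe sets, so larger differences could also fail to pass with this number of arrays. In the crossed run no member passed for NMDA (0.905% of all probe sets did), nicotine (0%) or NMDA within nicotine (1.02%), nor did any in the continuous run at 60 min (0.679%) or 180 min (0.452%).

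Control levels of each probe set varied between runs. Over the control means of 9 runs, Slc1a1 D63772_at ranged from 5180 to 8232, Slc1a3 S75687_s_at from 1315 to 6218, Slc6a11 from 1169 to 2970, Gad1 from 1660 to 5800 and Abat from 381 to 1151. These means include arrays that stood apart. The D63772_at low came from the repeat washed-out run, with control 3 at 401. Its high came from the crossed run, where control 2 read 12109, and 74.9 for S75687_s_at. The Gad1 and Abat lows came from the repeat washed-out run, which shares its samples with the first. Runs were hybridised separately, so these levels are given side by side and were not compared by a test. The arrays of all 8 runs tested had a trimmed mean between 2503 and 2513.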

How the data were processed

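The deposited values are linear probe set intensities that the authors scaled so that arrays of a run have a trimmed mean between 2503 and 2513. The sources used here do not name the software. Runs were fitted separately. Intensities plus the 10th percentile of the run were log2-transformed, probe sets with a run mean below the 30th percentile were left out (884 of 1263 kept), and group means were fitted with limma 3.58.1 (R 4.3.3; moderated with a trend) over all groups of a run, with Benjamini-Hochberg adjustment over all probe sets tested and a threshold of 0.05. The number of arrays limits the precision. The script was tested on simulated data. Genes came from the platform annotation: 1137 probe sets had 1 gene, 8 several and 118 none.

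The members, lists and probe sets followed were chosen with earlier results of these data known. Every member probe set was described; in each contrast the members past the threshold, or else that with the smallest p, were singled out, and for likeness the 3 highest correlations. In all, 26 contrasts were fitted under alternatives of offset, filter, scaling, block and samples. Pairing was checked by the correlation of same-numbered deviations, from 0.164 to 0.672 in the first washed-out NMDA contrast, after the blocked calls had been seen.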

Additional observations from a re-analysis of the deposited data

Results flagged for a closer look

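In groups of 4 or 5 arrays, 14 of 124 combinations of group and probe set had 1 array far from the others; chance gives about 1 in 20, and 6 of the 14 lay on arrays that stood apart. In the pulse run, control 2 read 2466 for Slc1a1 AF038571_s_at against 3423 to 3570, and control 1 read 4167 for Slc1a1 D63772_at against 6529 to 6997 and 1057 for Slc6a11 against 1500 to 1565. Replicate 3 of the 10 min pulse, which stood apart, read 7451 for Slc1a1 AF038571_s_at, 1889 for Slc1a1 L35558_s_at and 3235 for Slc1a3 S75687_s_at, each above its group. Replicate 4 of the 60 min pulse, which stood apart, read 1138 for Slc1a3 X63744_at against 283 to 367.

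In the repeat washed-out run, control 4, which stood apart, read 1434 for Slc1a3 X63744_g_at, nicotine replicate 2 read 2955 for Slc1a3 S75687_s_at, and NMDA replicate 5 read 10557 for Slc1a3 S59158_at. In the first run, nicotine replicate 3 read 573 and NMDA replicate 1 read 214 for Slc1a2 U15098_at, nicotine replicate 5, which stood apart, read 983 for Slc1a3 X63744_g_at, and NMDA replicate 5 read 642 for Abat.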

How the results depend on the processing

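Of the 26 counts of passing probe sets, 478 recomputed values stayed within 1.5 times the main count and 13 moved. In the first washed-out run the NMDA count of 1 was 2 with the replicate block (Gad1 joined Slc1a1), with the block once the arrays standing apart were left out (Gad1 again), and with median centring (Slc1a1 AF038571_s_at joined). Its NMDA within nicotine count of 1 was 2 under both block fits (Gad1, 1.00, limma adjusted p = 4e-04; 1.01, 0.00218), although these samples shared only a number, and 0 with only the groups compared. In the repeat run the NMDA count of 0 was 1 with the replicate block (Gad1, 1.41, adjusted p = 0.0387), with the block once the arrays standing apart were left out (Gad1, 1.72, 0.00464), in the mean of both runs (Slc1a1) and without control 2 (Abat), a leave-one-out range of 0 to 1. Its NMDA within nicotine count was 1 with the block once the arrays standing apart were left out (Gad1, 0.96, 0.0107) and in the mean of both runs (Slc1a1). The 30 min pulse count was 1 with the block once the arrays standing apart were left out (Slc1a1), and 0 once the array whose labels give 2 times was left out too. The replicate block alone changed no other call of these probe sets; it raised the count over all probe sets from 18 to 60 for NMDA within nicotine, from 3 to 13 for nicotine (first run) and from 0 to 10 at 360 min. With each array left out in turn, Slc1a1 D63772_at stayed past the threshold in the first run in 10 of 10 fits for NMDA (-0.54 to -0.44) and 10 of 10 within nicotine (-0.51 to -0.44). Over all alternatives the count of all probe sets for NMDA in the first run ranged from 33 (quantile normalization) to 210.

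Signs turned in 70 recomputed values, none of them in a contrast where the probe set passed with all arrays. Slc1a1 D63772_at in the repeat run (NMDA, 0.27) was -0.58 without the arrays that stand apart, -0.53 with the block as well and -0.53 in the mean of both runs, and from -0.49 to 0.53 with 1 array left out. At 180 min of continuous NMDA it was 0.0641 with median centring. Leaving out 1 array, Slc1a1 D63772_at ran from -0.144 to 0.0392 at 180 min, -0.0908 to 0.0936 at 60 min, -0.36 to 0.15 for crossed NMDA and -0.11 to 0.23 within nicotine; Slc1a1 L35558_s_at from -1.02 to 0.0992 for the crossed interaction; and Slc1a2 U15098_at from -1.01 to 0.073 at 30 min.

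For Gad1, without the arrays that stand apart the 10 min pulse was 0.84 (0.44 with the block, 0.43 also without the array whose labels give 2 times) and the 60 min pulse 0.029 (0.0888 and 0.0759 in those fits); median centring gave 0.0518 at 60 min and -0.0162 for crossed NMDA within nicotine, where quantile normalization gave -0.0151. With 1 array left out, Gad1 ran from -0.61 to 0.84, -0.36 to 0.54 and -0.49 to 0.42 for the 10, 30 and 60 min pulses, -0.53 to 0.58, -0.24 to 0.97 and -0.0912 to 0.973 at 30, 60 and 180 min of continuous NMDA, and -0.18 to 0.31 and -0.20 to 0.32 for crossed NMDA and NMDA within nicotine.

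For Abat, without the arrays that stand apart continuous NMDA gave 0.0255 at 10 min and 0.21 at 360 min (0.17 with the block), and crossed NMDA -0.0885 (also -0.0885 with the block). Quantile normalization gave 0.0171 at 180 min, -0.0102 for crossed NMDA and -0.0358 for NMDA in the first washed-out run, where median centring gave -0.0494. With 1 array left out, Abat ran from -0.94 to 0.30, -0.27 to 0.00094, -0.27 to 0.0045 and -0.32 to 0.21 at 10, 30, 180 and 360 min, -0.0556 to 0.271 and -0.27 to 0.66 for crossed NMDA and NMDA within nicotine, -0.0399 to 0.0872 and -0.0336 to 0.108 for the 10 and 30 min pulses, and -0.11 to 0.26 within nicotine in the first washed-out run. The cause was not tested in these cases.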
